A study of Mus musculus with 41 samples.

Results

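The 9 mesothelioma tumors of the RNA count table were described one by one and against each other. They were the 9 columns of a 15-column table whose heads do not name one of the 6 cultured cell lines, and they made up 9 of the 41 samples of the series. All 9 came from mice that received adenovirus carrying Cre under the CMV promoter, which is active in most cell types, by injection into the thoracic cavity. By the study's methods the mice were young adults at injection and drank cyclosporine A, an immunosuppressant, in the weeks around it. By the labels 5 tumors were Bap1-/-;Nf2-/-;Cdkn2ab-/- (BNC) and 4 were Nf2-/-;Cdkn2ab-/- (NC). In both genotypes the Cdkn2ab allele is a germline deletion of Ink4a and Ink4b with a conditional p19Arf, so every tumor shared it, and both were Nf2-deleted. The mice were of mixed strain background. The column heads carry no genotype, so BNC and NC tumors were not told apart and no column was given one. The tumors are called here by the code in their column head (B1, B2, B13, B14, B19, B27, B28 and B45). The remaining column has no code and is called the uncoded tumor; it was taken as a tumor because its head opens with the same number as those of the other 8, whose meaning is not stated, and is not that of a cell line. Nothing in the labels ties a tumor to a mouse, and neither labels nor heads name a batch among the 9.

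Mesothelioma arises from the mesothelium, the cell layer that lines the pleura, pericardium and peritoneum. Mesothelial cells carry mesothelin, uroplakins, keratins and the transcription factor WT1, and tumors with an epithelioid look keep more of these than sarcomatoid tumors, which resemble mesenchyme. Such tumors grow as sheets over lung, diaphragm and chest wall and hold many immune and stromal cells. RNA from a bulk piece therefore mixes tumor cells with whatever tissue was cut with them, and in such data fewer cells of a type and less RNA per cell cannot be told apart.

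Groups of genes that set single tumors apart are shown first by the promoters of 4 of their members, from RefSeq (GRCm38.p6), 250 bases before to 50 bases after the start, plus strand. Cxcl2 and Cxcl3 encode neutrophil-attracting chemokines of 1 cluster on chromosome 5 and were among the genes highest in B27. Capitals mark GGAATTT on either strand, letters that stand within the NF-kB-type element of these promoters; they were chosen after the sequences were seen. The windows are chr5:90903649-90903948 for Cxcl2 and chr5:90785851-90786150 for Cxcl3.
Cxcl2: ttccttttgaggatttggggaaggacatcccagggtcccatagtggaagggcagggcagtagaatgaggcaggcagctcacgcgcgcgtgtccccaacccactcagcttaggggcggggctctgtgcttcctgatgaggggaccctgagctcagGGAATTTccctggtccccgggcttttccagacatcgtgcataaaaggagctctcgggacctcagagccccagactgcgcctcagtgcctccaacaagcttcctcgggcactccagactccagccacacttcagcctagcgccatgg
Cxcl3: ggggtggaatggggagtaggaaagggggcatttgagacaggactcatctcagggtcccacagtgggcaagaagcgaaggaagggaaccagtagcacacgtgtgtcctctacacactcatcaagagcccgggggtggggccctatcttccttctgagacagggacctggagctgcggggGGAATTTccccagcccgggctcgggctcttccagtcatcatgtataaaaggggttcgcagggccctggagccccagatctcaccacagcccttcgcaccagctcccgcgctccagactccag
Myh4, a fast myosin heavy chain, and Pygm, muscle glycogen phosphorylase, were highest in B45 and high in B19 and B1. Capitals mark CAGCTG, an E-box of the kind myogenic factors bind; it reads the same on both strands. The windows are chr11:67237562-67237861 for Myh4 and chr19:6384158-6384457 for Pygm.
Myh4: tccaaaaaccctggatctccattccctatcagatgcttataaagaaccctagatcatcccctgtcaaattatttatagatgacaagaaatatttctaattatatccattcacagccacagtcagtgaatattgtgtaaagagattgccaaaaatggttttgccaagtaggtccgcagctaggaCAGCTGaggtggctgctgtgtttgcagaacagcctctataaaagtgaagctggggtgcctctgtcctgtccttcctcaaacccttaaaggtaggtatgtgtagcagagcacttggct
Pygm: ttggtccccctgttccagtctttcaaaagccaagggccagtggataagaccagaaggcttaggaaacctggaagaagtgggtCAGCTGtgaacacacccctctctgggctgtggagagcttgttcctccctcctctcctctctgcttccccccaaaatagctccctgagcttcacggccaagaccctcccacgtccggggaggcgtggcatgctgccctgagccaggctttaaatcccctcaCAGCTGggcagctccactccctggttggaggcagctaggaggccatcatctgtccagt
Of the 40 most variable genes, 27 had a promoter in the table. GGAATTT was in 3 of them, Cxcl2, Cxcl3 and S100a9, and in 3.91% of all 32851 promoters. CAGCTG was in 8 of them and in 16.3% of all promoters; 6 of the 8 (Atp2a1, Ckm, Igfn1, Myh4, Myl2 and Pygm) are muscle genes, and Cyp2f2 and Inmt are not. A gene was counted if any of its promoters matched, whereas the percentages are over single promoters, so the units differ. GGAATTT was chosen after the Cxcl2 and Cxcl3 sequences were seen, so those matches were set beforehand. The matches describe the letters only.

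Depth was even apart from 1 tumor. The total was 8158740 counts in B1 and between 14679537 and 21851974 in the other 8, with a median of 17993815 over all 9. Values are given below as CPM, counts scaled to a common library size, here after TMM scaling, and differences on the log2(CPM + 1) scale. A count of 0 allowed, at 3 counts, up to 0.748 CPM in B1 and at most 0.187 CPM in any other tumor, covering counting error only. Genes with a mean over 5 CPM numbered 11822 of 27197.

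B1 also differed in which RNAs its counts came from. Gm42418 and Lars2, a long noncoding RNA gene on chromosome 17 (39846958 to 39848788) and a mitochondrial leucyl-tRNA synthetase gene, both overlap or resemble ribosomal RNA sequence in the reference. With Gm26917 they took 38.6% of the counts of B1, 10.8% of those of B13 and between 0.416% and 0.807% in the other 7. The 3 genes with the largest lead in B1 over every other tumor were Rmrp, Rpph1 and Rn7sk, the RNA parts of RNase MRP, RNase P and the 7SK particle, none of which is known to carry a poly-A tail. Rmrp was at 722 CPM in B1 and at most 5.48 CPM elsewhere. Rpph1 was at 1041 CPM against at most 8.41 CPM. Rn7sk was at 583 CPM against at most 13.3 CPM. For each of them the second-highest tumor was B13. A gene ID with no symbol, ENSMUSG00000089855, followed the same order, at 12050 CPM in B1 and 1074 CPM in B13. Mitochondrial mRNA took 14.9% of the counts of B1 and 1.45% to 8.85% of those of the other 8. In B1, 385 of the 11822 genes (3.26%) were at least 4-fold above the median of the other 8 tumors and 79 (0.668%) at least 4-fold below it. The count below was 132 without B19 and also over 1.5 times higher without B45. The libraries were poly-A enriched by the labels. What these RNAs contributed to the other values of B1 and B13 was not tested.

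**Figure D1:**
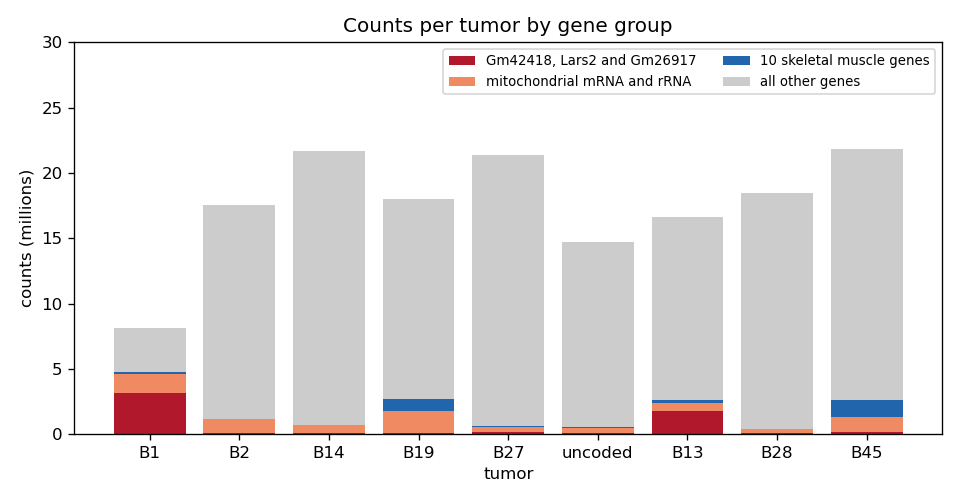
Number of counts (vertical axis) for each of the 9 tumors (horizontal axis), stacked by gene group: Gm42418, Lars2 and Gm26917 in red, mitochondrial mRNA and rRNA in orange, the 10 skeletal muscle genes in blue and all other genes in grey. B1 has the smallest total and the largest red share, 38.6% of its counts, followed by B13 with 10.8%.

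Mitochondrial, matrix and muscle transcripts filled much of the ranking by mean CPM, which is not corrected for gene length. By mean CPM the 20 leading genes were Gm42418, Lars2, mt-Co1, mt-Cytb, mt-Nd1, Col3a1, mt-Nd2, Acta1, mt-Nd4, mt-Nd5, Eef1a1, Col1a2, Atp2a1, mt-Rnr2, Fn1, Sparc, Col1a1, Aldoa, Scgb1a1 and Actb, of which 7 are mitochondrial. Col3a1, a fibrillar collagen, ran from 2423 CPM in B45 through a median of 8356 CPM to 17366 CPM in B13. Eef1a1, a translation elongation factor, was the steadiest of the 20, between 2635 and 5965 CPM. Some entries owed their place to some tumors only. Scgb1a1, the club cell secretory protein of the airway, was at 28968 CPM in B2 and at most 9.98 CPM in any other tumor. Acta1, skeletal actin, was at 13068 to 19223 CPM in B45, B19 and B1 and at most 5524 CPM in the other 6. Gm42418 and Lars2 led through B1 and B13. Ranked by the median over tumors instead, 14 of the 20 genes stayed. Ranked by the median CPM per kilobase of exon, 11 stayed, and mt-Cytb led with 6836 CPM per kb, ahead of mt-Co1 and mt-Nd1. Col3a1, Col1a2, Col1a1, Fn1 and Sparc all dropped out of that ranking. Acta1 was the only skeletal muscle gene in it, at rank 18. The 20 highest genes of each tumor took 7.93% of its counts in B28, 15.8% at the median and 60.1% in B1.

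The tumors were not equally alike, and 2 pairs stood closer than the rest. Over the 11822 genes Pearson's r of log2(CPM + 1) ran from 0.606 for B1 with B28 to 0.931 for B1 with B19, with a median of 0.769 over the 36 pairs. Spearman's rho ran from 0.624 to 0.931. The uncoded tumor and B28 were the next closest pair at r = 0.925, and B14 with B13 followed at r = 0.878. B1, B19, B45 and B13 were all joined to each other at 0.825 or more. B2 and B27 had no close partner, with a highest r of 0.812 and 0.792. Only 109 genes, 0.922% of all, differed 4-fold or more between B1 and B19, and 138, or 1.17%, between the uncoded tumor and B28. These closest pairs still differed by a biological coefficient of variation of 0.321 and 0.356, against a median of 0.573 over all pairs, so no pair looked like 1 library entered again. B1 and B19 also differed in Xist, described below. B13 sat nearest the middle, with a median r of 0.812 to the others, and B28 lay farthest out at 0.663, then B45 at 0.678. With the genes of the 27 lists described below left out, r was 0.931 for B1 with B19 and 0.925 for the uncoded tumor with B28. The points are genes of the same libraries and not replicates, so no p is given.

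**Figure D2:**
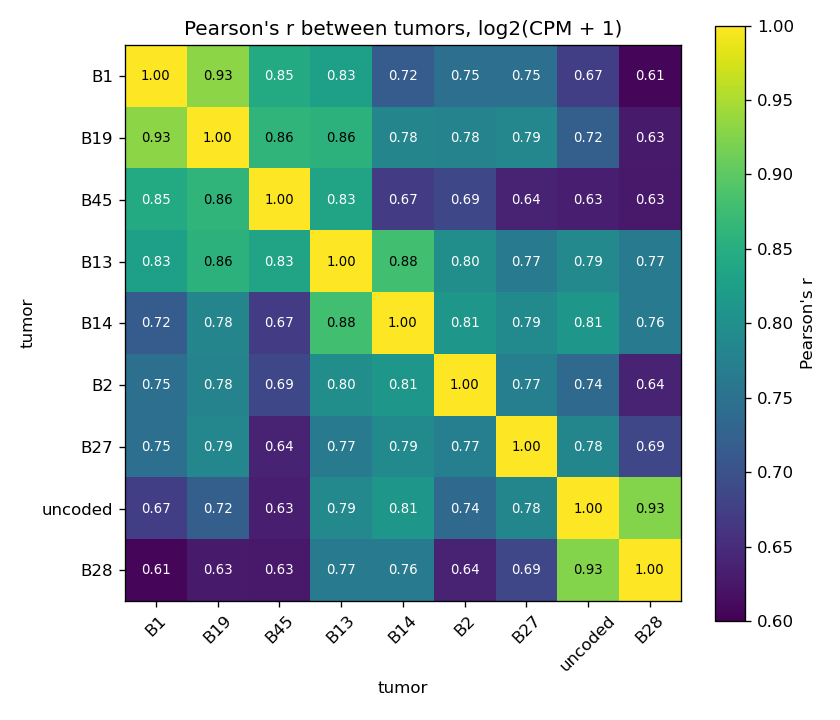
Pearson's r of log2(CPM + 1) over 11822 genes for every pair of the 9 tumors, printed in each cell and coloured from 0.6 to 1. The brightest cells off the diagonal are B1 with B19 at 0.93 and the uncoded tumor with B28 at 0.93, and the darkest lie between B28 and the tumors B1, B19 and B45.

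Variation was spread over many genes but carried by few. The standard deviation of log2(CPM + 1) over the 9 tumors had a median of 0.56 over genes, with a 5th percentile of 0.26 and a 95th percentile of 1.76. It was over 1 in 2186 genes (18.5%), over 2 in 407 (3.44%) and over 3 in 48. In all, 1833 genes were at least 4-fold above the median of the others in at least 1 tumor and 1062 were at least 4-fold below it. The 40 genes with the largest variance had variances from 23.65 (Myh4) to 9.30 (Il1b), and the first gene outside was Lars2 at 9.22. They fell into few kinds. Skeletal muscle genes led in B19 and B45, airway and alveolar genes in B2, chemokine and neutrophil genes in B27, and Hmga2, Crabp1 and peptide or hormone genes in the uncoded tumor and B28. Of the 40, 11 were highest in B2, 7 in B45, 5 in B19 and 5 in B27, and none in B14. In 24 of the 40 the highest tumor was at least 2-fold above the next.

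**Figure D3:**
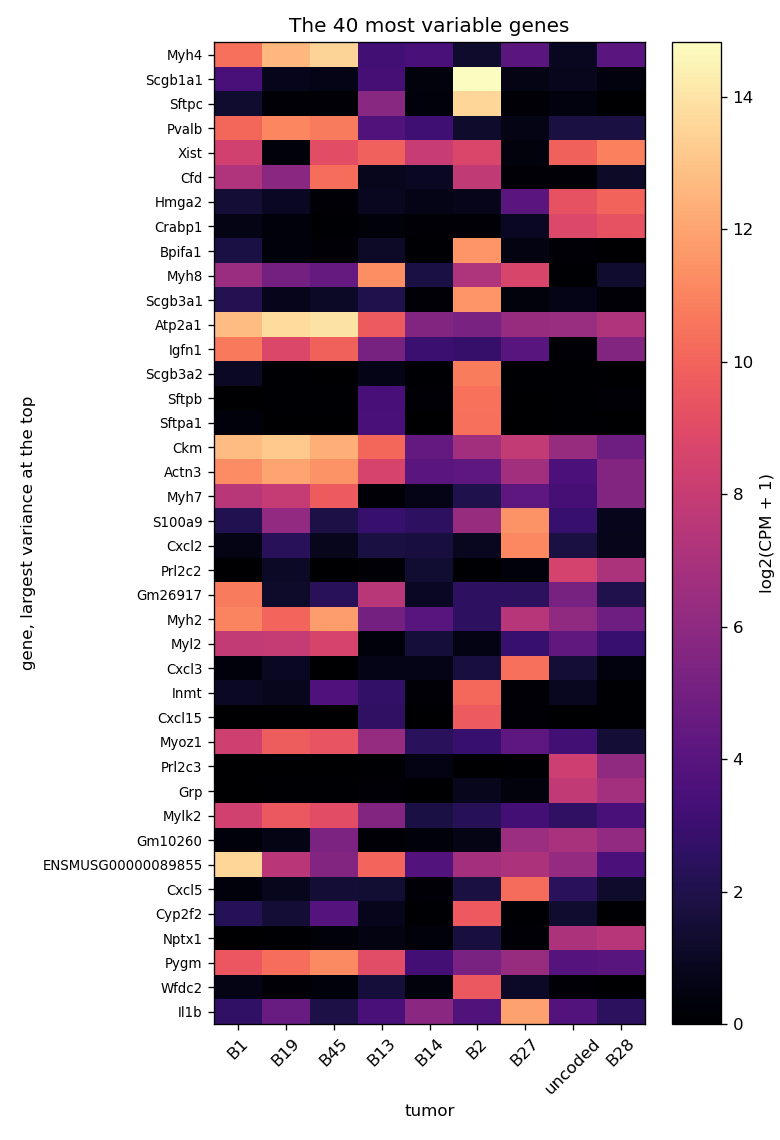
The 40 most variable genes (vertical axis, largest variance at the top) in each of the 9 tumors (horizontal axis), coloured by log2(CPM + 1) from 0 to the highest value. Muscle genes such as Myh4 and Atp2a1 are bright in B1, B19 and B45, secretoglobins and surfactant genes in B2, and Hmga2 and Crabp1 in the uncoded tumor and B28.

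Skeletal muscle genes made the widest split that several tumors shared. A list score, the mean log2(CPM + 1) over the genes of a list, was 12.04 in B19, 11.99 in B45 and 11.66 in B1 for 10 genes of skeletal muscle. It was 8.70 in B13, 7.72 in B27, 5.98 in the uncoded tumor, 5.63 in B2, 5.17 in B28 and 4.42 in B14. All 10 genes were at least 4-fold above the median of the others in B19, in B45 and in B1. For B19, 374 of all genes (3.16%) passed that mark and 21 (0.178%) passed it below, and for B45 534 (4.52%) and 147 (1.24%). For B1 these counts were 385 (3.26%) and 79 (0.668%). The count below for B19 was 51 without B1 and 33 to 36 without B2, B13, B14 or B45. The 10 genes took 5.99% of the counts of B45, 5.08% of those of B19 and 0.0285% of those of B14. Ckm, muscle creatine kinase, was at 9196 CPM in B19, 6911 in B1, 5184 in B45, 1091 in B13 and 20.3 to 234 CPM in the other 5. Myh4 was at 11644 CPM in B45, 6059 in B19 and 1333 in B1, and at most 16.5 CPM elsewhere. Pvalb, parvalbumin, which buffers calcium in fast fibers, was at 1119 to 2189 CPM in the same 3 tumors and at most 12.5 CPM in the rest. Of the 11822 genes, 68 were at least 4-fold higher in each of B1, B19 and B45 than in any other tumor. That number was 104 for B19 and B45 with B1 left out, and 177 for all 3 with B13 left out.

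B13 carried part of the same muscle set at lower levels, and led in 2 other muscle genes. Acta1 was at 5524 CPM and Pygm at 530 CPM in B13. Myh8, the perinatal myosin heavy chain, was at 2507 CPM in B13, 401 CPM in B27 and 140 CPM in B2, and at most 86.1 CPM elsewhere. Myl3, a slow and ventricular myosin light chain, was at 476 CPM in B13 and at most 115 CPM elsewhere. Myh7, the slow heavy chain, was lowest of all in B13 at 0.166 CPM, against 845 CPM in B45. The third of the leading genes of B13 was Sim2, a transcription factor of the basic helix-loop-helix family, at 44.9 CPM against at most 9.16 CPM. Of the 10 skeletal muscle genes 5 were at least 4-fold above the median of the others in B13, where 178 genes (1.51%) passed that mark and 47 (0.398%) passed it below, or 73 below without B14. The cardiac list had a narrower range, from 1.08 in B14 to 3.85 in B1. Myh6, the atrial myosin heavy chain, was at 82.4 CPM in B45 and at most 14.5 CPM elsewhere, and Tnnt2, cardiac troponin T, at 630 CPM in B1 and at most 142 CPM elsewhere.

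B2 held lung epithelial transcripts. The score of the lung list was 9.62 in B2, 2.82 in B13 and between 0.53 and 1.17 in the other 7, and all 10 genes were at least 4-fold above the median of the others in B2. Over all genes 284 (2.40%) passed that mark in B2 and 149 (1.26%) passed it below. The count above was 657 with genes over a mean of 1 CPM and 189 with genes over 10 CPM, and the count below was 95 without B13 and 84 without B45. The mean that admits a gene includes B2. Genes almost silent elsewhere, such as Nkx2-1, passed it through B2 alone, and their 4-fold calls followed from that filter. Sftpc, surfactant protein C of alveolar type 2 cells, was at 12469 CPM in B2, 55.9 CPM in B13 and at most 1.5 CPM in the other 7. Ager, a marker of alveolar type 1 cells, was at 927 CPM against at most 10.0 CPM. Nkx2-1, the transcription factor that specifies lung epithelium, was at 57.8 CPM in B2, 0.387 CPM in B13 and 0 in the other 7. The 3 genes with the largest lead were Scgb1a1, Scgb3a2 and Bpifa1, all secreted by airway epithelium. Scgb3a2 was at 1805 CPM and at most 0.998 CPM elsewhere. Bpifa1 was at 2961 CPM and at most 2.49 CPM elsewhere. The 10 listed genes took 5.35% of the counts of B2. B2 also had the highest B and plasma cell score, 5.74, with all 7 of the list's genes that passed the mean of 5 CPM at least 4-fold above the median of the others. That mean, too, includes B2. Cd79a, part of the B cell receptor, was at 62.9 CPM in B2, 22.3 in B19 and 20.9 in B45, and at most 3.95 CPM elsewhere. Jchain, the joining chain of secreted immunoglobulin, was at 333 CPM in B2 and 122 CPM in B45.

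B27 stood apart by neutrophil and chemokine genes. The neutrophil score was 8.23 in B27 and between 1.64 and 4.0 in the other 8, and 8 of 8 listed genes over the mean of 5 CPM were at least 4-fold above the median of the others. Over all genes 400 (3.38%) passed that mark in B27 and 158 (1.34%) passed it below. S100a9, a subunit of the neutrophil protein calprotectin, was at 2907 CPM and at most 79.6 CPM elsewhere. Il1b, the inflammatory cytokine, was at 3979 CPM and at most 58.6 CPM elsewhere. Cxcl2 was at 2230 CPM, Cxcl3 at 1364 CPM and Cxcl5 at 1254 CPM in B27, and none of the 3 passed 4.37 CPM in any other tumor. Il17a, the cytokine that drives such chemokines in epithelia, was at 290 CPM in B27 and had no count in the other 8 tumors. Mmp8, neutrophil collagenase, was at 103 CPM and at most 4.99 CPM elsewhere. The mean of 5 CPM includes B27, and Mmp8 passed it through B27 alone, so its 4-fold call followed from that filter. Ly6g, the surface marker of mouse neutrophils, was highest in B27 too but low, at 4.36 CPM, and did not pass that mean.

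The same tumor had the highest immediate early, endothelial and pericyte scores. The immediate early score was 7.26 in B27 and at most 5.46 elsewhere, with 8 of 11 genes at least 4-fold above the median of the others. That mark was passed by 3.38% of all genes in B27. Hspa1a and Hspa1b, near-identical heat shock genes whose reads can be shared, were at 287 and 456 CPM and at most 11.0 and 30.3 CPM elsewhere. Junb was at 576 CPM against at most 128 CPM. The endothelial score was 6.40 in B27 and 5.97 in B2, with 3.65 to 4.93 in the other 7. Pecam1, an endothelial junction protein, was at 277 CPM in B27 and 135 CPM in B2. Krt5, a basal keratin whose mean did not pass 5 CPM, was at 37.7 CPM in B27 and at most 3.54 CPM elsewhere. The squamous score to which Krt5 belongs was not highest in B27, at 1.88, against 2.59 in B13 and 1.94 in B2.

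The uncoded tumor and B28 shared a set of genes that were higher than in the other 7. In both, 70 of the 11822 genes were at least 4-fold higher than in any other tumor, and 10 were at least 4-fold lower. Without B27 the number higher was 102 and the number lower 40. Without B14 the number lower was 19. The pair was set by these data, and no other pair was counted in this way. Hmga2, a chromatin protein of embryonic cells (chromosome 10, 120361275 to 120476469), was at 1025 CPM in B28 and 648 CPM in the uncoded tumor, at 16.7 CPM in B27 and at most 1.75 CPM in the other 6. Crabp1, a retinoic acid binding protein, was at 648 and 457 CPM in these 2 tumors and at most 0.943 CPM elsewhere. Nptx1, a neuronal pentraxin, was at 173 and 135 CPM against at most 2.21 CPM. Grp, gastrin-releasing peptide, was at 106 and 228 CPM against at most 0.786 CPM. Prl2c2 and Prl2c3, proliferins with near-identical copies among which reads can be split, were at 372 and 299 CPM in the uncoded tumor and at 129 and 66.4 CPM in B28. Sox9, a transcription factor of cartilage and many progenitors, was at 159 CPM in B28 and 93.8 CPM in the uncoded tumor and at most 3.33 CPM elsewhere. In the uncoded tumor 296 genes (2.50%) were at least 4-fold above the median of the others and 300 (2.54%) below; in B28 428 (3.62%) were above and 533 (4.51%) below, the most of any tumor.

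Within this pair each tumor had leading genes of its own. In B28 these were Rasgrf1, a Ras exchange factor, Slc5a7, the choline transporter, and AI593442. Slc5a7 was at 161 CPM in B28, 19.2 CPM in the uncoded tumor and at most 0.664 CPM elsewhere, and the other 2 had the same second tumor. In the uncoded tumor they were Igkv8-16, an immunoglobulin kappa variable segment, and Fga and Fgb, fibrinogen chains made mainly by liver. Igkv8-16 was at 47.2 CPM against at most 1.07 CPM. Fga was at 61.4 CPM and Fgb at 47.7 CPM, against at most 4.76 and 5.82 CPM. That the uncoded column is a tumor rests on the number that opens its head. Without it, 131 genes were at least 4-fold higher in B28 than in any other tumor and 78 at least 4-fold lower.

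Mesothelial genes varied within the same tumors. The score of 14 mesothelial genes was 7.80 in B14, 6.84 in B13, 6.72 in B2, 6.63 in B19, 6.07 in B45, 5.46 in B1, 5.39 in the uncoded tumor, 5.22 in B27 and 4.36 in B28. Upk3b, a uroplakin (chromosome 5, 136038496 to 136046487), was at 1250 CPM in B14, 402 CPM at the median, 27.3 CPM in the uncoded tumor and 3.58 CPM in B28. Msln, mesothelin, was at 1491 CPM in B14, 516 CPM at the median and 42.6 CPM in B28. Wt1 was detected in all 9, from 39.9 CPM in B28 to 294 CPM in B14. Keratins did not move as 1 group. Krt7 was lowest in B28 at 3.49 CPM and in the uncoded tumor at 11.2 CPM, whereas Krt18 was highest in those 2, at 429 and 496 CPM. Calb2, calretinin, was at 0 or near it in all but B27, where it was at 11.1 CPM. In B14, 6 of 13 mesothelial genes over the mean of 5 CPM were at least 4-fold above the median of the others, where 193 of all genes (1.63%) passed that mark and 344 (2.91%) passed it below. In B28, 6 of the 13 were at least 4-fold below, as were 6 in the uncoded tumor and 5 in B27. Of all genes, 4.51% were at least 4-fold below in B28, 2.54% in the uncoded tumor and 1.34% in B27. Msln and Wt1 were thus present in every tumor, and B28 had the lowest level of both.

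B14 led the mesothelial genes, being highest in 9 of the 13 over the mean of 5 CPM, and was highest in all 7 MHC class II genes. The share of all genes highest in B14 was not counted, so these counts have no background beside them. The genes leading in B14 were Moxd1, Stra6, a cell surface receptor for retinol carriers, and Ptger3, a prostaglandin E receptor. Stra6 was at 162 CPM in B14, 27.4 CPM in B13 and at most 8.90 CPM elsewhere. Ptger3 was at 205 CPM against at most 40.8 CPM. In B19 they were Glycam1, a mucin-like ligand for L-selectin, Dusp26, a phosphatase, and Aspn, the matrix protein asporin. Glycam1 was at 128 CPM in B19 and at most 8.31 CPM elsewhere. Aspn was at 571 CPM against at most 174 CPM.

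B45 had adipocyte transcripts and some cartilage transcripts beside its muscle genes. The adipocyte score was 5.89 in B45, 2.84 in B1, 2.45 in B2, 1.96 in B19 and at most 0.95 in the other 5. Plin1, which coats lipid droplets, was at 111 CPM in B45 and at most 2.49 CPM elsewhere. Adipoq, adiponectin, was at 292 CPM in B45, 24.3 CPM in B2 and 19.2 CPM in B1. Pck1 and Lgals12 also led in B45, at 237 and 47.0 CPM. Cfd, the fat-derived complement factor adipsin, had the sixth largest variance of all genes, at 1278 CPM in B45, 218 in B2, 146 in B1 and 57.7 in B19, and at most 1.21 CPM in the other 5. Acan, the proteoglycan of cartilage, was at 47.1 CPM in B45 and at most 1.93 CPM elsewhere. Col10a1, the collagen of hypertrophic cartilage, was at 66.9 CPM against at most 5.75 CPM. The rest of the cartilage and bone list did not follow them as a group. Of its 8 genes over the mean of 5 CPM, 3 were at least 4-fold above the median of the others in B45. That mark was passed by 4.52% of all genes in B45. B45 was the highest tumor in 2 of the 8 and the lowest in 2.

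Cell division genes were highest in the uncoded tumor and lowest in B45. The score of 10 such genes was 6.44 in the uncoded tumor, 5.91 in B28, 5.12 in B14, 4.85 in B27, 4.68 in B13, 4.33 in B19, 3.69 in B2, 3.48 in B1 and 2.58 in B45. Top2a, topoisomerase II alpha, was at 269 CPM in the uncoded tumor, 193 CPM in B28, 66.4 CPM at the median and 11.3 CPM in B45. In B45, 8 of 10 genes were at least 4-fold below the median of the others, as were 147 of all genes (1.24%). In the uncoded tumor 6 of 10 were at least 4-fold above it, as were 296 of all genes (2.50%). Hypoxia and glycolysis genes had a narrow range, 5.57 in B2 to 7.35 in B28. Car9, a carbonic anhydrase of hypoxic cells, was at 39.9 CPM in B28, 29.6 CPM in the uncoded tumor and at most 5.70 CPM elsewhere.

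**Figure D4:**
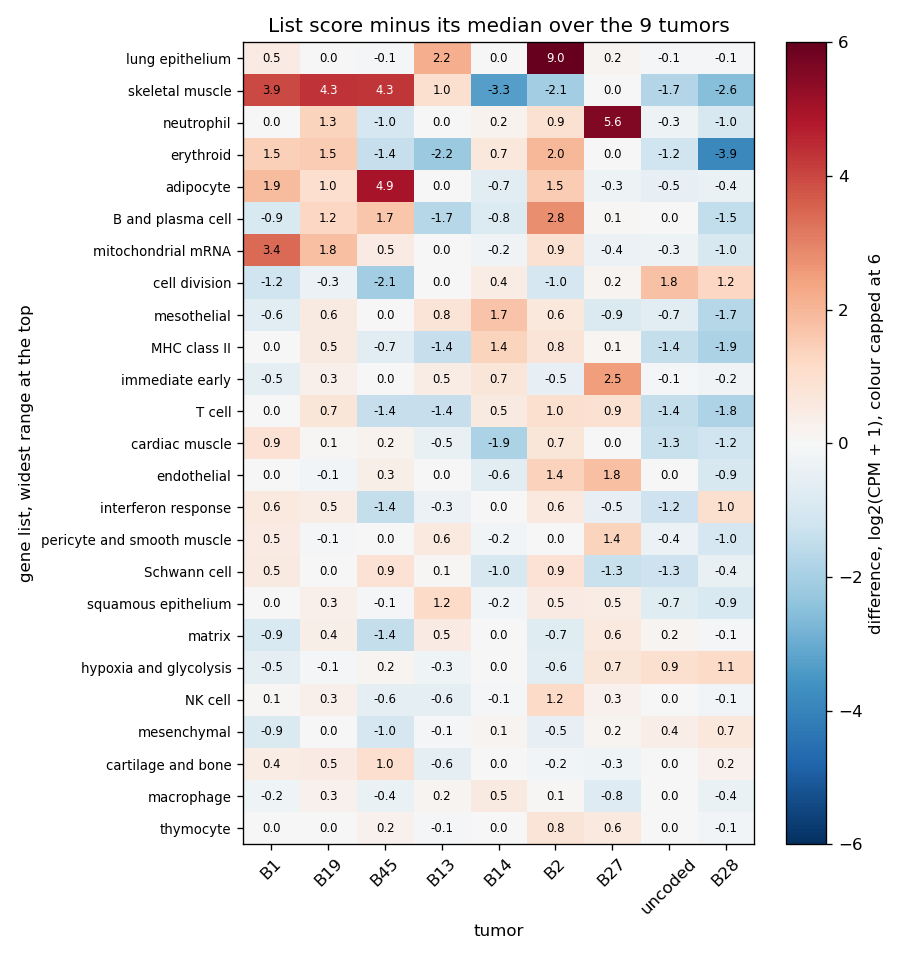
Score of each gene list (vertical axis, widest range at the top) minus its median over the 9 tumors, in log2(CPM + 1), printed in each cell and coloured from blue (lower) to red (higher). The lists of sex-linked and of targeted genes are left out. The lung score of B2 is 9.0 above its median, the neutrophil score of B27 5.6 above and the adipocyte score of B45 4.9 above, and B28 lies below the median for most immune lists.

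The macrophage score was more even than the neutrophil score, with a range of 1.31 against 6.59. It ran from 7.01 in B27 through 7.78 to 8.32 in B14. Within it Lyz2, lysozyme, ran from 217 CPM in B28 to 4089 CPM in B14, while Cd163, a scavenger receptor, was at 102 CPM in the uncoded tumor and 99.5 CPM in B28 and at most 42.8 CPM elsewhere. T cell scores were 2.83 to 3.79 in B1, B14, B19, B27 and B2, and 0.99 to 1.45 in B28, the uncoded tumor, B13 and B45. Cd3g, a T cell receptor subunit, was at 109 CPM in B27, 16.2 CPM at the median and 0.895 CPM in B28. Cd8b1, of cytotoxic T cells, was at only 1.62 CPM in B27 and was highest in B19 at 14.3 CPM. MHC class II genes, which present antigen, ran from 5.42 in B28 to 8.65 in B14. Cd74, the class II invariant chain, was at 270 to 300 CPM in B28, B13 and the uncoded tumor and at 711 to 3251 CPM in the other 6. The NK cell score was low everywhere, from 0.47 to 2.23. Interferon response genes were highest in B28 at 5.62 and lowest in B45 at 3.20. Irf7, an interferon regulatory factor, was at 264 CPM in B1 and 16.5 CPM in B45.

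Of 10 pairs of list scores tested over the 9 tumors, 3 passed a two-sided exact permutation test after Benjamini-Hochberg adjustment over the 10. The lists had been chosen with earlier results of these data known, so the p-values are not independent support for a relation. T cell and MHC class II scores went together, with Pearson's r = 0.912 (exact permutation p = 0.00174, adjusted p = 0.0174) and Spearman's rho = 0.883 (permutation p = 0.00308, adjusted p = 0.0225). Without B28 and the uncoded tumor, the 2 farthest from the median T cell score, r was 0.846. Leaving out B1, B2 or B19 took the adjusted permutation p over 0.05, to 0.0805, 0.0623 and 0.0508. Mesothelial and macrophage scores had r = 0.807 (exact permutation p = 0.00879, adjusted p = 0.0440) and rho = 0.867 (permutation p = 0.00451, adjusted p = 0.0225). Without B14 and B28 r was 0.725. That call was lost in 6 of the 9 runs that left out 1 tumor, namely B1, B2, B13, B14, B19 or B27, with adjusted permutation p from 0.0511 to 0.137 in them, and with DESeq2 size factors (adjusted permutation p = 0.0504). Matrix and mesenchymal scores had r = 0.783 (exact permutation p = 0.0139, adjusted p = 0.0463) but rho = 0.550 (permutation p = 0.133, adjusted p = 0.332). Without B1 and B45 that r was 0.334, so the relation rested on those 2 tumors; leaving out any 1 tumor other than B28 also took its adjusted permutation p over 0.05. That call was lost too with DESeq2 size factors (adjusted permutation p = 0.0600), with TMM computed without the 3 rRNA-linked genes (0.0547) and with a pseudocount of 4 (0.0510). Fn1 and Sparc, of the mesenchymal list, are matrix proteins themselves.

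The other 7 pairs did not pass. Hypoxia and cell division scores had r = 0.696 (exact permutation p = 0.0387, adjusted p = 0.0968), rho = 0.667 (permutation p = 0.0589, adjusted p = 0.196) and r = 0.288 without B28 and the uncoded tumor. Mesothelial with T cell scores had r = 0.425 (exact permutation p = 0.253, adjusted p = 0.506) and rho = 0.350 (permutation p = 0.359, adjusted p = 0.598). Mesothelial with cell division scores had r = -0.279 (exact permutation p = 0.469, adjusted p = 0.735) and rho = -0.283 (permutation p = 0.463, adjusted p = 0.661). Mesothelial with mesenchymal scores had r = -0.245 (exact permutation p = 0.522, adjusted p = 0.735) and rho = -0.467 (permutation p = 0.213, adjusted p = 0.425). Mesothelial with matrix scores had r = 0.032 (exact permutation p = 0.935, adjusted p = 0.935) and rho = 0 (permutation p = 1). Macrophage with T cell scores had r = 0.172 (exact permutation p = 0.655, adjusted p = 0.735) and rho = 0.200 (permutation p = 0.613, adjusted p = 0.767). Macrophage with interferon scores had r = 0.167 (exact permutation p = 0.662, adjusted p = 0.735) and rho = 0.067 (permutation p = 0.880, adjusted p = 0.978). Without the 2 tumors farthest from the median of the first score, r for these last 6 pairs ran from -0.300 to 0.529. Since no batch is named among the 9, no within-batch value is given. The scores share libraries, and the 9 tumors mix both genotypes, whose part was not tested.

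Erythroid and mitochondrial genes varied widely, with B28 lowest in both. The erythroid score ran from 0.54 in B28 to 6.38 in B2. Hbb-bs, a beta globin, was at 1180 CPM in B2, 186 CPM at the median and 1.25 CPM in B28. The mitochondrial mRNA score ran from 6.56 in B28 to 10.94 in B1. Stromal lists had narrower ranges. The mesenchymal score ran from 6.02 in B45 to 7.70 in B28 and the matrix score from 7.80 in B45 to 9.80 in B27. The pericyte and smooth muscle score ran from 4.91 in B28 to 7.27 in B27. Tagln, a smooth muscle actin-binding protein, was at 762 CPM in B27 and 16.2 CPM in B28. The Schwann cell score ran from 1.53 in B27 to 3.75 in B45, the cartilage and bone score from 1.63 in B13 to 3.23 in B45, the squamous score from 0.54 in B28 to 2.59 in B13 and the thymocyte score from 0.58 in B28 to 1.47 in B2.

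Sex-linked genes divided the tumors cleanly. Xist, the noncoding RNA of the inactive X chromosome, was at 0.187 CPM in B19 and 0.314 CPM in B27 and between 261 and 1896 CPM in the other 7, the fifth largest variance of all genes. The Y-linked genes had the opposite pattern: Ddx3y was at 74.4 CPM in B19 and 66.6 CPM in B27 and at most 0.0561 CPM elsewhere, and Uty was at 15.1 and 15.4 CPM and had no count elsewhere. Eif2s3y and Kdm5d followed the same split. No tumor held both kinds of RNA at these levels. Gm10260 divided the tumors differently, at 40.3 to 123 CPM in B27, B28, B45 and the uncoded tumor and at most 0.540 CPM in the other 5.

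The targeted genes did not divide the tumors into separate sets, and they were not used to assign a genotype. Bap1, a deubiquitinase, ran from 43.4 CPM through a median of 53.7 CPM to 71.2 CPM, with a standard deviation of 0.24 on the log2 scale against 0.56 for the median gene. Nf2, which encodes merlin, ran from 46.9 through 64.7 to 112 CPM. Counts over a whole gene include exons outside the deleted part and RNA of host cells. Cdkn2a ran from 0.452 through 3.86 to 7.68 CPM. Cdkn2b was at most 0.135 CPM in any tumor.

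**Figure D5:**
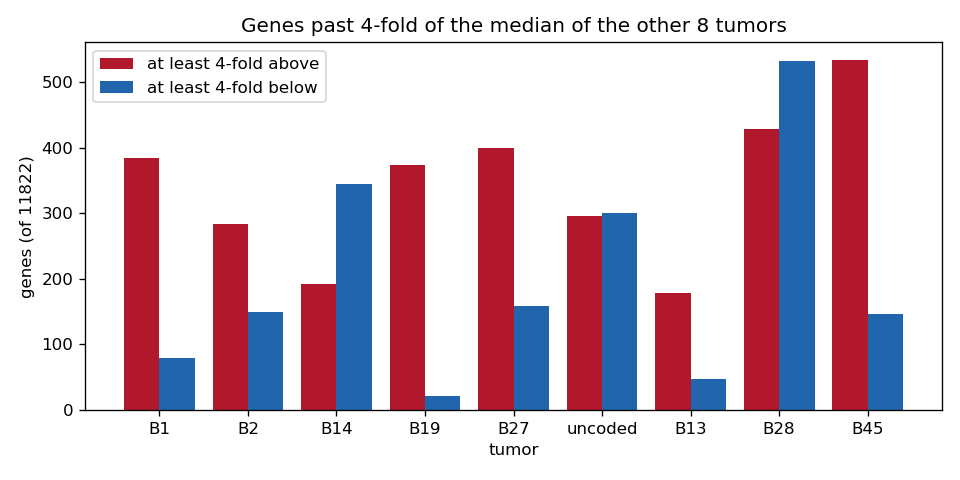
Number of genes, of 11822, at least 4-fold above (red) or below (blue) the median of the other 8 tumors, for each of the 9 tumors. B45 has the most genes above, 534, B28 the most below, 533, and B19 the fewest below, 21, a count that was 51 without B1.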

How the data were processed

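RNA was measured by poly-A-enriched, single-end sequencing. Per the labels the authors aligned with TopHat2 (2.0.12) to mm10, counted with HTSeq and list DESeq2; the deposited values are raw counts per Ensembl gene. Reads of mapping quality under 10 and nonprimary alignments were discarded, which lowers counts of near-identical genes; the counting strand and annotation release are not given in the sources used here. Of the other per-sample columns, 20 (6 cell lines and 14 DNA log2 columns) were not used. The deposited DNA log2 values were not used.

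Counts were scaled by TMM in edgeR 4.0.16 (R 4.3.3) and analysed in Python 3.11.15 (numpy 2.4.6, pandas 2.3.3, matplotlib 3.10.9) as log2(CPM + 1), with a pseudocount of 1 and, for ranking, correlation and fold calls, a mean over 5 CPM. Symbols and coordinates came from GENCODE vM21 (GRCm38, the assembly of mm10), which matched 98.6% of IDs. Named genes were the 20 with the highest mean, the 40 with the largest variance, the 3 of each tumor with the largest lead over the other 8, and the genes of 27 lists; Muc16 and mt-Nd4l were not analysed here. The members and lists were chosen with earlier results of these data known. Genes named outside that rule were chosen after their values were seen. A 4-fold call compares 1 tumor with the median of the other 8 and has no replicate, so it carries no p. The mean of 5 CPM includes that tumor, so a gene high in it alone can pass the mean through it. For such a gene a call above follows from the filter. The only tests were exact permutations of 10 score pairs. Their p-values are the share of all orders of the 9 tumors that gave a correlation at least as large in size. They take all orders as equally likely, although the tumors mix both genotypes. Alternatives were other scalings (library size, DESeq2 1.42.0 size factors), pseudocounts, filters, folds and each tumor left out. Ranking and calling were tried on simulated data that varied less between tumors than these did. The common biological coefficient of variation of the 9 tumors was 0.648. The simulation therefore gives no error rate for these tumors. Totals ran from 8158740 to 21851974 counts.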

Additional observations from a re-analysis of the deposited data

Results flagged for a closer look

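A tumor was picked out where its gap to the nearest other tumor, divided by the range of all 9, passed Dixon's critical value of 0.493. Chance does so for about 1 in 20 groups, and the 40 genes examined had been picked for large variance. The lists had been chosen with earlier results of these data known. For neither can the 1 in 20 be read as an expected share. The total count of B1 was low by this measure, with a ratio of 0.596 on the log2 scale. Scores of 25 of the 27 lists were examined, and 4 were picked out. These were the lung epithelium score of B2 (0.748), the neutrophil (0.643) and immediate early (0.592) scores of B27, and the adipocyte score of B45 (0.541).

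Of the 40 most variable genes 15 were picked out, each with 1 tumor high, B2 or B27. In B2 these were Scgb3a2 (0.908), Bpifa1 (0.843), Wfdc2 (0.832), Scgb3a1 (0.821), Scgb1a1 (0.787), Cxcl15 (0.737), Sftpb (0.677), Sftpa1 (0.664), Inmt (0.645), Cyp2f2 (0.601) and Sftpc (0.571), most of them airway or alveolar genes. In B27 they were Cxcl3 (0.836), Cxcl2 (0.835), Cxcl5 (0.782) and Il1b (0.600).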

How the results depend on the processing

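Under library size alone in place of TMM the median standard deviation over genes was 0.72 and 3441 genes passed 4-fold in either direction (2140 below), where B1 alone went from 79 to 1448 genes below and from 385 to 189 above. DESeq2 size factors, TMM without the 3 rRNA-linked genes, a pseudocount of 0.5 and protein-coding genes alone kept these counts within 1.5 times. A pseudocount of 4 gave a median standard deviation of 0.50 and 464 genes below, and a mean over 1 CPM gave 0.59 and moved the genes above in B2 from 284 to 657 (189 with a mean over 10 CPM). With a pseudocount of 4 the count below fell by more than 1.5 times in each of the 9 tumors. At 2-fold 6910 genes passed (5507 above, 4885 below) and at 8-fold 982 (825 above, 298 below). Ranked by edgeR's tagwise dispersion, 11 of the 40 most variable genes stayed among the first 40; leaving out 1 tumor kept 28 to 37. Leaving out 1 tumor gave a median standard deviation of 0.53 to 0.58 and a median pairwise r of 0.744 to 0.780.

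For the score pairs, r by exact permutation test is given. With DESeq2 size factors mesothelial with macrophage had r = 0.797 (adjusted permutation p = 0.0504) and matrix with mesenchymal r = 0.763 (0.0600); the latter also lost its call without the rRNA-linked genes, at r = 0.774 (0.0547), and with a pseudocount of 4, at r = 0.776 (0.0510). Library size alone turned mesothelial with mesenchymal to r = 0.120 and took hypoxia with cell division to r = 0.784 (adjusted permutation p = 0.0333); DESeq2 factors turned mesothelial with matrix to r = -0.021. Leaving out 1 tumor, r ran from 0.697 to 0.854 for mesothelial with macrophage, 0.883 to 0.948 for T cell with MHC class II, 0.644 to 0.893 for matrix with mesenchymal and 0.593 to 0.887 for hypoxia with cell division. It ran from -0.467 to 0.101 for mesothelial with mesenchymal (turned without B28), -0.076 to 0.178 for mesothelial with matrix (turned without B1, B13, B14 or B19) and -0.0041 to 0.367 for macrophage with interferon response (turned without B45). The causes of these changes were not tested. No paired analysis was possible because the tumor columns carry no replicate number or genotype. Depth limits what B1 can show for genes near 0.748 CPM.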

Other observations

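The codes of 5 tumors (B2, B13, B14, B19 and B28) also stand in the heads of DNA columns, followed there by a word for a site. That word is Diaphragm for B28, Eso for B13 and RC for B2, B14 and B19; no source used here spells out the last. Whether the RNA came from the same piece is not stated. B28, with Diaphragm, had the second lowest skeletal muscle score of the 9 (5.17), and the tumors with RC had scores of 12.04 (B19), 5.63 (B2) and 4.42 (B14).

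For each gene over a stricter expression minimum, the log2 difference of each tumor from the gene's median over the 9 tumors was taken. The median difference per chromosome, minus the median over all these genes in that tumor, stayed within -0.17 and 0.20. This covers chromosomes with at least 100 such genes. A gene's median over 9 tumors is the value of 1 of them, which holds the differences of tumors near the middle at 0. The value was exactly 0 in B13 on every such chromosome but X, and in B19 on every one but 7. The narrow range is thus partly set by the measure. A shift that most of the tumors share is removed by this measure and cannot be seen in it.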
